A study of Mus musculus with 4 samples.

Results

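Voltage-gated sodium and calcium channels are membrane proteins built from a pore-forming subunit and auxiliary subunits. Their genes were taken as every probe whose symbol on the array is that of a sodium channel alpha or beta subunit (Scn), a calcium channel alpha-1 subunit from Cacna1a to Cacna1i, or a calcium channel alpha-2-delta, beta or gamma subunit (Cacna2d, Cacnb and Cacng). In all 37 genes of 30854 symbols met this rule, with 82 of 45281 probes. A probe was detected where its detection score, which is 1 minus its detection p-value, was over 0.95, and a probe was tested where it was detected on 2 or more of the 4 arrays, which held for 43 probes of 24 genes. Of these, 39 were detected on all 4 arrays. The anterior and the posterior lobes of the cerebellum of untreated Swiss mice were dissected at postnatal day 7, and total RNA of 2 anterior and 2 posterior samples was hybridized to Illumina mouse expression arrays, with the aim of finding genes that differ between the lobes. Nothing in the labels says that the replicates came from separate animals, so the p-values measure the spread between these samples, which may be technical. The arrays detected 43 and 44 of the 82 channel probes in the anterior and 42 and 42 in the posterior samples.

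Sodium channels carry the rising phase of the action potential. Calcium channels admit calcium on depolarization and so couple electrical activity to transmitter release, firing patterns and gene expression. In the cerebellum, mutations of several of these genes cause ataxia in mice, and Purkinje cells, granule neurons and interneurons differ in the channel subunits they carry.

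Values below are log2 signals after quantile normalization, listed for replicate 1 and then replicate 2, and differences are posterior minus anterior on the log2 scale with the standard error (SE) of the limma fit. Each probe is reported on its own, and a log2 signal is read only against the same probe on another array. Of the tested probes, 12 of 15 of pore-forming subunits and 9 of 10 of sodium channel beta subunits were below 0, against 49.4% of all tested probes. So were 6 of 9 of calcium channel beta, 4 of 6 of gamma and 1 of 3 of alpha-2-delta subunits. With each array shifted to a common 75th percentile these counts were 12, 7, 3, 3 and 1, against 41.7% of all tested probes. The 2 tested probes of Scn4b had -0.63 and -0.019. Both tested probes of Cacna2d1 were above 0, at 0.79 and 0.38. By limma 8 of the 43 tested channel probes, or 18.6%, differed by over 1.2-fold with an unadjusted p under 0.05, the criterion of the study's methods, against 8.29% of the 21726 tested probes of the whole array. Of these, 4 probes of 3 genes were higher in the posterior lobes, where 3.30% of all tested probes were, and 4 probes of 4 genes were lower, where 1086 of the 21726 were. The 4 higher include a Scn3b probe that was detected in the posterior samples only, and so was tested only through the lobe where it is high. Among probes detected on at least 1 array of each lobe, a filter chosen after seeing the data, 7 of 42 channel probes passed the criterion, 3 higher and 4 lower, against 7.67% of all probes tested. No channel probe had an adjusted p under 0.05 by limma, against 0.106% of all tested probes. The lowest adjusted p was 0.201 by limma. With the replicate number as a block, 3 channel probes passed an adjusted p of 0.05 by limma, of Cacna2d1, Scn11a and Scn4b. Of all tested probes 2.71% passed it with that block, and the samples share only the number. By the methods' t-test 2 channel probes, of Scn4b and Cacna1b, passed the study criterion, near the share of 3.41% of all tested probes, and 0 passed after adjustment.

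The log2 difference was below 0 for 32 of the 43 channel probes, against 49.4% of all tested probes, and its median was -0.12 against 0.0023 over all tested probes. On 16 probes both posterior arrays were below both anterior arrays, against 21.5% of all tested probes, and on 5 probes both were above, against 21.1%. With each array shifted to a common 75th percentile in place of quantile normalization, 26 of the 43 were below 0 and the median was -0.074, where 41.7% of all tested probes were below 0 and their median was 0.032. Without anterior replicate 2 the median was -0.046. Without anterior replicate 1 the study criterion was passed by 17 channel probes, where 22.1% of all tested probes passed it, and an adjusted p of 0.05 by 14, where 12.0% did, on probes of Cacna1a, Cacna1b, Cacna1d, Cacna2d1, Cacna2d3, Cacnb3, Scn3b, Scn4b and Scn8a. Without anterior replicate 2 the second count was 1, where 1.04% of all tested probes passed, and without either posterior replicate it was 0, as it was over all tested probes. An exact permutation of 2 against 2 samples cannot give a two-sided p under 0.333, so the number of arrays limits the precision.

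**Figure D1:**
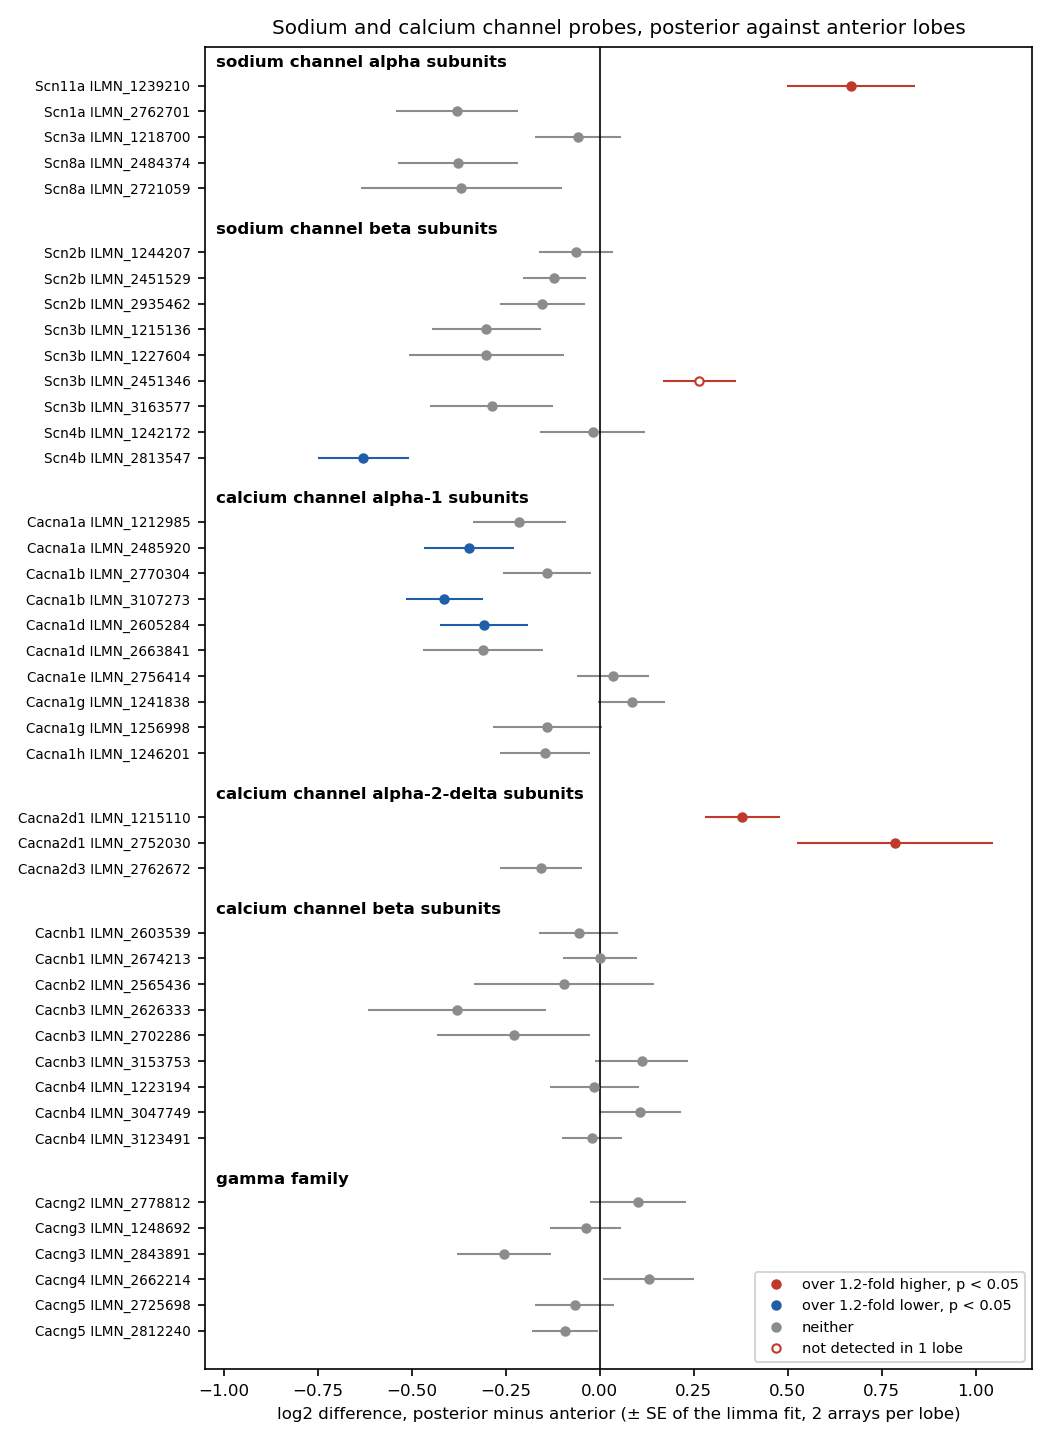
Log2 difference, posterior minus anterior, of 42 of the 43 tested sodium and calcium channel probes by subunit family, with bars for the SE of the limma fit over 2 arrays per lobe. Blue and red mark the 4 lower and 4 higher probes past 1.2-fold with an unadjusted p under 0.05. The open point is a Scn3b probe not detected in the anterior samples, for which the bound is at least 1.10-fold.

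Among the sodium channel alpha subunits, which form the pore, 5 probes of 4 genes were tested. Their median difference was -0.37, and 4 of the 5 were below 0 with every scaling tried. Scn1a (ILMN_2762701), known for its role in the excitability of inhibitory neurons and Purkinje cells, had log2 signals of 10.87 and 10.45 in the anterior and 10.39 and 10.17 in the posterior samples. Both posterior samples were below both anterior ones, anterior replicate 1 was the highest, and the gap between anterior replicate 2 and posterior replicate 1 was small. Its difference was -0.38 (SE 0.16, adjusted p = 0.519 by limma), and -0.17 without anterior replicate 1. Without anterior replicate 2 it was -0.59 with an adjusted p of 0.0468, the lowest over the alternatives, which reached 0.999.

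Scn8a, the pore of the channel that supports repetitive and resurgent firing in Purkinje cells, had 2 tested probes. The first (ILMN_2484374) had log2 signals of 9.10 and 9.47 in the anterior and 8.84 and 8.98 in the posterior samples, a difference of -0.38 (SE 0.16, adjusted p = 0.512 by limma). The second (ILMN_2721059) had 8.84 and 9.49 in the anterior and 8.53 and 9.06 in the posterior samples, a difference of -0.37 (SE 0.27, adjusted p = 0.670 by limma). The groups did not overlap on the first probe and overlapped on the second, where both replicates 2 were above the replicates 1 of their lobe. Without anterior replicate 1 the differences were -0.56 and -0.69, with adjusted p-values of 0.0218 and 0.0374 by limma, the lowest over the alternatives, which reached 0.999. Without anterior replicate 2 the differences were -0.19 and -0.047.

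Scn11a (ILMN_1239210), which encodes a channel known from sensory neurons of the dorsal root ganglia, had log2 signals of 6.81 and 7.11 in the anterior and 7.82 and 7.44 in the posterior samples. Both posterior samples were above both anterior ones, and the probe was detected on 1 of the 2 anterior arrays and on both posterior arrays. The fitted difference was 0.67 (SE 0.17, adjusted p = 0.314 by limma). Where a probe was not detected, its level is only known to lie under the detection limit, so that signal was raised to that of the dimmest detected probe of its array, and the fold that results is a bound. By this bound the posterior signal of Scn11a was at least 1.47-fold higher. With neqc, which subtracts a background estimated from the detection p-values, the difference of this dim probe was 1.09. Scn3a (ILMN_1218700) had a difference of -0.059. Scn4a of skeletal muscle, Scn7a, and Scn9a and Scn10a of sensory neurons had no tested probe.

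The sodium channel beta subunits modify gating and act as adhesion molecules. Of 10 tested probes 9 were below 0, or 7 with the shift to a common 75th percentile, and the median was -0.14. Scn4b, whose cytoplasmic tail is known as a candidate blocking particle for resurgent sodium current, had log2 signals of 8.86 and 8.98 in the anterior and 8.33 and 8.26 in the posterior samples on ILMN_2813547. The groups were well apart, with less spread within a lobe than between the lobes. This probe was 1.55-fold lower in the posterior lobes, a difference of -0.63 (SE 0.12, 95% interval -0.92 to -0.33, adjusted p = 0.201 by limma), and between -0.76 and -0.57 over the alternatives. In RNA of whole lobes, fewer cells that carry a transcript and less of it per cell cannot be told apart. The other Scn4b probe (ILMN_1242172) did not show this, with 7.83 and 8.12 in the anterior and 7.91 and 8.003 in the posterior samples, overlapping groups and a difference of -0.019 (95% interval -0.36 to 0.32).

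Scn2b, a beta subunit linked by a disulfide bond to the pore, had 3 tested probes. ILMN_2451529 had log2 signals of 11.07 and 11.04 in the anterior and 10.90 and 10.97 in the posterior samples. ILMN_2935462 had 9.87 and 9.91 against 9.64 and 9.83, and ILMN_1244207 had 7.12 and 7.24 against 7.15 and 7.08. The posterior samples were below the anterior ones on the first and second of these probes and overlapped with them on ILMN_1244207. The differences were -0.12 (SE 0.083), -0.15 (SE 0.11) and -0.063 (SE 0.10), with adjusted p-values of 0.656, 0.677 and 0.861 by limma, and the last was 0.0093 with the shift to a common 75th percentile. With samples left out the second ranged from -0.25 to -0.059 and the last from -0.12 to -0.0063.

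Scn3b, a beta subunit abundant in the developing brain, had 4 tested probes that disagreed. The 3 that were detected on all arrays had differences of -0.30 (SE 0.14), -0.30 (SE 0.21) and -0.29 (SE 0.16), and none passed the study criterion. The dim probe ILMN_2451346 had 6.88 and 6.92 in the anterior samples, where it was not detected, and 7.09 and 7.23 in the posterior samples. With its anterior signals raised to the detection limit in the same way, the posterior signal was at least 1.10-fold that of the anterior lobes. This is under the fold of the study criterion, which the fitted difference of 0.26 passed, and the probe was tested only through the posterior arrays. The criterion was no longer passed without normalization (0.30) or without anterior replicate 1 (0.24) or 2 (0.29), and the difference was 0.45 with neqc.

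Among the calcium channel alpha-1 subunits, 10 probes of 6 genes were tested. Of these, 8 were below 0 with every scaling tried, the median was -0.18, and on 7 both posterior arrays were below both anterior arrays, against 21.5% of all tested probes. Cacna1a, the pore of the P/Q-type channel of Purkinje cells and of most cerebellar synapses, had 2 probes. ILMN_2485920 had log2 signals of 9.64 and 9.84 in the anterior and 9.38 and 9.42 in the posterior samples, and ILMN_1212985 had 7.78 and 7.56 against 7.42 and 7.49. Both posterior samples were below both anterior ones on each probe, by a small margin on the second. The first was 1.27-fold lower in the posterior lobes, a difference of -0.35 (SE 0.12, adjusted p = 0.432 by limma), and passed the study criterion. It no longer did without anterior replicate 2 (-0.24), nor without posterior replicate 1 (-0.33) or 2 (-0.37), where its size changed little. The second had a difference of -0.21 (SE 0.12, adjusted p = 0.600 by limma), or -0.33 with neqc and -0.10 without anterior replicate 1.

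Cacna1b, the pore of the N-type channel of presynaptic terminals, was lower on a dim probe (ILMN_3107273) that had log2 signals of 7.54 and 7.65 in the anterior and 7.17 and 7.20 in the posterior samples. The samples of a lobe lay close together and the lobes were apart. This probe was 1.33-fold lower in the posterior lobes, a difference of -0.41 (SE 0.10, adjusted p = 0.302 by limma), or -0.68 with neqc, and fell short of the study criterion without posterior replicate 1 (-0.40). The other tested probe of the gene (ILMN_2770304) had 8.40 and 8.50 in the anterior and 8.33 and 8.29 in the posterior samples. The direction was the same without overlap, and the difference was -0.14 (SE 0.12, adjusted p = 0.715 by limma).

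Cacna1d, an L-type channel that opens at low voltage and supports pacemaking, had log2 signals of 7.34 and 7.42 in the anterior and 7.18 and 6.95 in the posterior samples on ILMN_2605284. Posterior replicate 2, on which the probe was not detected, was the lowest sample, and the groups did not overlap. The fitted difference was -0.31 (SE 0.12, adjusted p = 0.462 by limma), and with that sample raised to the detection limit the difference was -0.26, which is a bound. The difference was -0.53 with neqc, and the study criterion was no longer passed without normalization (-0.28), with the shift to a common 75th percentile (-0.25), without anterior replicate 2 (-0.27) or without posterior replicate 2 (-0.20). The other tested Cacna1d probe also had a difference of -0.31, with a larger SE of 0.16.

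Cacna1g, a T-type channel of Purkinje cells and deep nuclei that opens near rest and supports burst firing, had 2 tested probes on opposite sides of 0. ILMN_1241838 had log2 signals of 11.90 and 11.96 in the anterior and 12.11 and 11.92 in the posterior samples, and ILMN_1256998 had 7.58 and 7.44 against 7.20 and 7.54. The groups overlapped on each probe, and posterior replicate 1 was the highest sample on the first and the lowest on the second. The differences were 0.085 (95% interval -0.13 to 0.30) and -0.14 (95% interval -0.50 to 0.22), and -0.0060 and 0.032 without posterior replicate 1. The T-type gene Cacna1h and the R-type gene Cacna1e had differences of -0.15 and 0.035. Cacna1c, the main L-type channel of heart and brain, was not detected on any of its 6 probes, and Cacna1f of the retina and the T-type gene Cacna1i were not detected either.

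The alpha-2-delta subunits are extracellular proteins that carry calcium channels to the membrane, and some of them are targets of gabapentin. Here 3 probes of 2 genes were tested. Cacna2d1 was higher on both of its tested probes. Its probe ILMN_2752030 had log2 signals of 11.55 and 10.85 in the anterior and 12.23 and 11.74 in the posterior samples. Its probe ILMN_1215110 had 10.54 and 10.37 in the anterior and 10.85 and 10.82 in the posterior samples. On each probe both posterior samples were above both anterior ones, with anterior replicate 2 the lowest, and the first probe varied more within a lobe. The differences were 0.79 (SE 0.26, adjusted p = 0.417 by limma), which is 1.72-fold higher, and 0.38 (SE 0.10, adjusted p = 0.327 by limma), which is 1.30-fold higher.

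Left-out samples moved the first Cacna2d1 probe, from 0.43 without anterior replicate 2 to 1.14 without anterior replicate 1, with an adjusted p of 0.304 and 0.000702 by limma and a range of 0.000702 to 0.999 over the alternatives. It did not pass the study criterion without posterior replicate 1 (0.54), and the second probe did not without either posterior replicate (0.37 and 0.39). Cacna2d3 had a difference of -0.16 with overlapping groups, and Cacna2d4 was not detected. No probe on the array carried the symbol of Cacna2d2, an alpha-2-delta gene known in Purkinje cells.

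**Figure D2:**
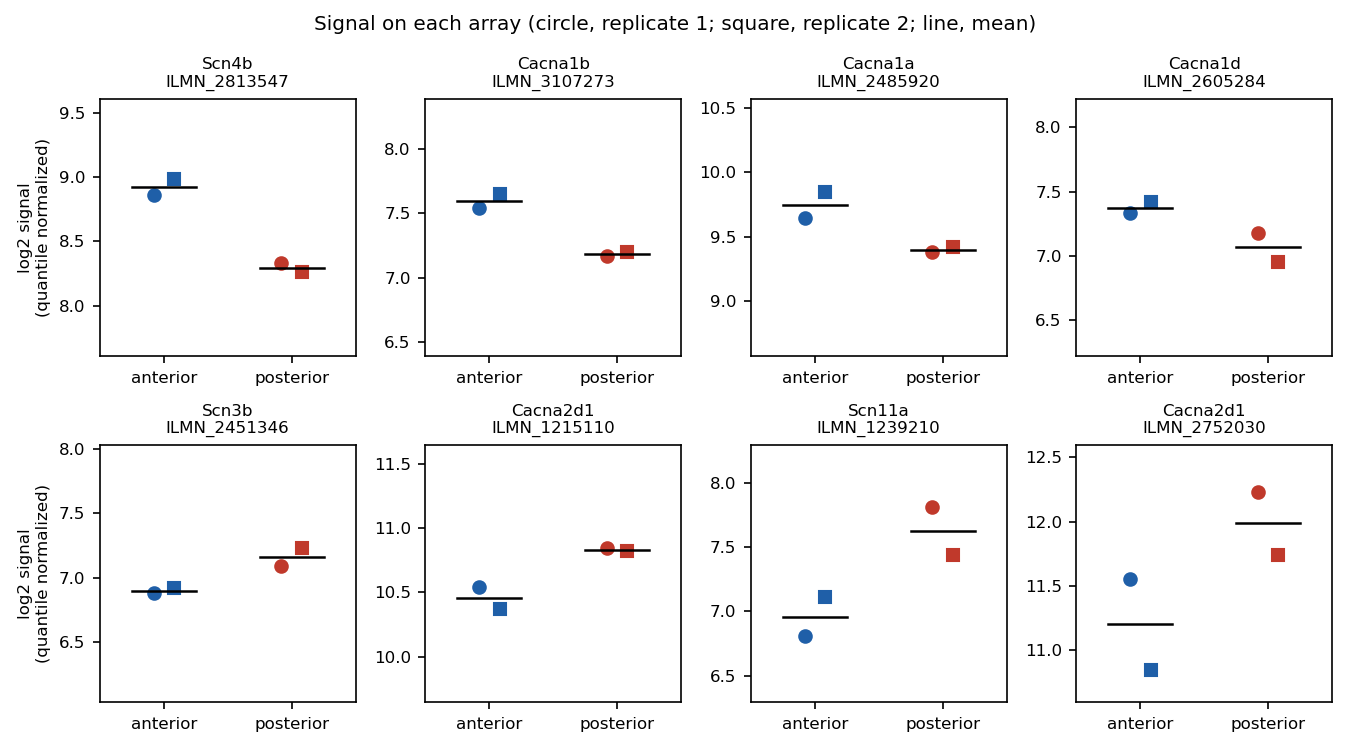
Log2 signal after quantile normalization on each of the 4 arrays for the 8 channel probes past 1.2-fold with an unadjusted p under 0.05, with circles for replicate 1, squares for replicate 2 and lines for the mean of each lobe. Every vertical axis spans the same range of log2 units. On each probe the 2 posterior samples lie on the same side of both anterior samples, which picking probes by this criterion on the same arrays favours.

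The calcium channel beta subunits are intracellular proteins that bring the pore to the membrane and set its gating, and all 4 genes had a tested probe. None of their 9 probes passed the study criterion. The median was -0.021 with 6 probes below 0, and 0.0044 with 3 below 0 after the shift to a common 75th percentile. Cacnb4, whose loss causes ataxia in the lethargic mouse, had log2 signals of 11.55 and 11.66 in the anterior and 11.58 and 11.58 in the posterior samples on ILMN_3123491. ILMN_1223194 had 8.38 and 8.38 against 8.31 and 8.43, and ILMN_3047749 had 7.31 and 7.11 against 7.32 and 7.32. The lobes overlapped on the first and second of these probes, and on ILMN_3047749 the posterior samples were above the anterior ones by a margin smaller than the gap between the anterior samples. The differences were -0.021 (95% interval -0.22 to 0.18), -0.014 (95% interval -0.30 to 0.28) and 0.11 (95% interval -0.16 to 0.38). The 3 probes of Cacnb3 disagreed, with differences of -0.38, -0.23 and 0.11 and overlapping groups, and those of Cacnb1 and Cacnb2 lay between -0.096 and 0.00041.

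The gamma family holds both calcium channel subunits and proteins that carry AMPA-type glutamate receptors to synapses. Of 8 genes 4 had a tested probe, and none of the 6 probes passed the study criterion. Cacng2, also called stargazin, whose loss removes AMPA receptors from cerebellar granule neurons, had log2 signals of 9.50 and 9.66 in the anterior and 9.58 and 9.78 in the posterior samples (ILMN_2778812). Cacng4, a relative abundant in the young brain, had 9.53 and 9.75 against 9.74 and 9.80 (ILMN_2662214). The lobes overlapped for each gene, and anterior replicate 1 was the lowest sample for each. The differences were 0.10 (95% interval -0.21 to 0.41) and 0.13 (95% interval -0.17 to 0.43). They were 0.0011 for Cacng2 without posterior replicate 2 and 0.016 for Cacng4 without anterior replicate 1. Cacng3 had differences of -0.037 and -0.26 on its 2 probes, both without overlap, and Cacng5 had -0.067 and -0.092. Cacng1 of skeletal muscle, Cacng6 and Cacng7 were not detected, and Cacng8 was detected on 1 array.

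In all, 35 of the 82 channel probes were not detected on any array, with intensities of 52.2 to 134, and 39 were detected on every array, with intensities of 124.9 to 4705. Of the 13 genes without a tested probe, Cacng8 alone was detected, on 1 array. Of the 14 genes with over 1 tested probe, 8 had every probe below 0, Cacna2d1 had both above, and Cacna1g, Cacnb1, Cacnb3, Cacnb4 and Scn3b had probes on both sides. The 8 include Scn2b and Scn4b, where ILMN_1244207 and ILMN_1242172 were at 0.0093 and 0.012 with the shift to a common 75th percentile. The same share over all genes of the array is not given here. With neqc 13 of the 43 differences were over 1.5 times as large and none changed sign.

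Partner genes were read from the same fit. Scn2a, the pore of the sodium channel of unmyelinated and immature axons, is named on the array by its older symbol Scn2a1, which the rule did not take. Its probe ILMN_1214686 had log2 signals of 10.80 and 10.92 in the anterior and 10.49 and 10.49 in the posterior samples. Both posterior samples were below both anterior ones, and the difference was -0.37 (SE 0.092, adjusted p = 0.306 by limma). A second probe (ILMN_1222355) had -0.30 and also passed the study criterion, and the remaining probe, with overlapping groups, had -0.13. The list of related genes outside the rule had 8 tested probes, which include those of Nalcn, Cachd1, Tpcn1, Tpcn2 and Catsper2. These 2 Scn2a probes were the only ones past the criterion, and the median was -0.14.

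Genes of the axon initial segment and the node of Ranvier, where sodium channels cluster, had 4 of 20 tested probes lower and 0 higher by the study criterion, with a median of -0.15. The 3 with the largest differences were both probes of Bcan, a proteoglycan of the extracellular matrix, at -0.51 and -0.40, and Cntnap2, a protein beside the node that holds potassium channels in place, at -0.36. Of the 4 tested probes of the FHF proteins, which bind the tails of sodium channels, Fgf13 was lower at -0.27 on 1 probe, and the median was -0.19. The AMPA receptor subunits, partners of the gamma family, had 11 of 12 probes below 0, against 49.4% of all tested probes. Their median was -0.18, and none passed the criterion.

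Of 31 tested probes for calcium stores, pumps and buffers, 5 were lower and 3 higher by the study criterion, with a median of -0.11. The lower probes include those of the pumps Atp2a3 at -0.49 and Atp2b2 at -0.38, and a probe of the intracellular release channel Ryr2 (ILMN_1244015) that was not detected in the posterior samples and was at least 1.58-fold lower there. That Ryr2 probe was tested only through the anterior arrays. The 3 higher were both probes of Calb2, a calcium buffer, at 0.44 and 0.37, and the pump Atp2a1 at 0.32. Probes of Atp2b2 disagreed, since another (ILMN_2688213) had 0.63 (SE 0.27), the largest value above 0 in the list, without passing the criterion. That probe had log2 signals of 9.08 and 8.24 in the anterior and 9.35 and 9.23 in the posterior samples. Anterior replicate 2 was far the lowest of these. A probe of the pump Atp2b3 had -0.42 (SE 0.23) without passing the criterion. Of 16 tested probes of presynaptic partners, 1 was lower by the criterion, that of the active zone protein Rims1 at -0.78 (SE 0.17, adjusted p = 0.251 by limma). The median of this list was -0.050. The other tested Rims1 probe had -0.20 with overlapping groups. The value furthest from 0 in the list was that of the calcium sensor Calm3 at 0.87 (SE 0.48), which did not pass. Its log2 signals were 14.09 and 12.45 in the anterior and 14.18 and 14.11 in the posterior samples. Anterior replicate 2 alone stood far below the other arrays. None of the partner probes had an adjusted p under 0.05.

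Marker genes of several cell types moved between the lobes as well. In the list of oligodendrocytes and myelin, 22 of 25 tested probes were lower by the study criterion, 6 of them with an adjusted p under 0.05, and all 11 genes were detected. The median difference was -0.94, and the summed signal was 124574 and 125346 in the anterior and 82604 and 78046 in the posterior samples. The brightest probe of the list, of Mbp, had a difference of -0.45. The part of these cells in the lower signals of Scn4b, Cacna1a and Cacna1b, on 1 probe each past the study criterion, was not tested. Nor was it tested for Scn1a and Scn8a, none of whose probes passed that criterion.

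Meningeal fibroblast markers moved the other way, with 7 of 10 tested probes higher by the study criterion, and 2 with an adjusted p under 0.05. Their median was 0.50 and all 7 genes were detected. The summed signal was 15798 and 17803 in the anterior and 25717 and 30705 in the posterior samples, and the brightest probe, of Igf2, had a difference of 0.47. Of the 8 muscle markers 3 had a tested probe, and 2 of these 3 were higher by the study criterion. The summed muscle signal was 637 and 656 in the anterior and 978 and 955 in the posterior samples. The brightest was Acta1 at 0.18, and Ckm, Myh1, Myh2, Myh6 and Tnnt3 were not tested. The part of these cells in the higher signals of Cacna2d1 and Scn11a was not tested.

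The neuronal lists had medians nearer 0. Purkinje cell markers had 0 of 10 tested probes past the criterion and a median of -0.12, with a summed signal of 61457 and 63832 in the anterior and 59568 and 57941 in the posterior samples, the brightest probe, of Itpr1, at -0.067, Calb1, Pcp4 and Car8 without a tested probe and Ppp1r17 without a probe. Mature granule neuron markers had 3 of 8 probes lower by the criterion, all of Etv1, and 1 higher, of Grin2c, with a median of -0.16. Their summed signal was 33451 and 34729 against 32221 and 31458, the brightest probe was that of Cbln1 at -0.052, and Cbln3 and Fat2 had no tested probe. Granule progenitors (median 0.033, 4 probes) and inhibitory interneurons (median -0.028, 7 probes) had none past the criterion. The markers of unipolar brush cells had 2 of 7 probes higher by the criterion, both of Calb2, and a median of 0.067. The pan-neuronal list had 0 of 5 past it and a median of 0.089.

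Astrocytes and Bergmann glia had 0 of 8 probes past the criterion and a median of -0.0023, and oligodendrocyte precursors had Pdgfra higher at 0.47 and Sox10 lower at -0.51 among 4 probes. Vessels and blood (median 0.10, 16 probes) and microglia (median 0.0050, 6 probes) had none.

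**Figure D3:**
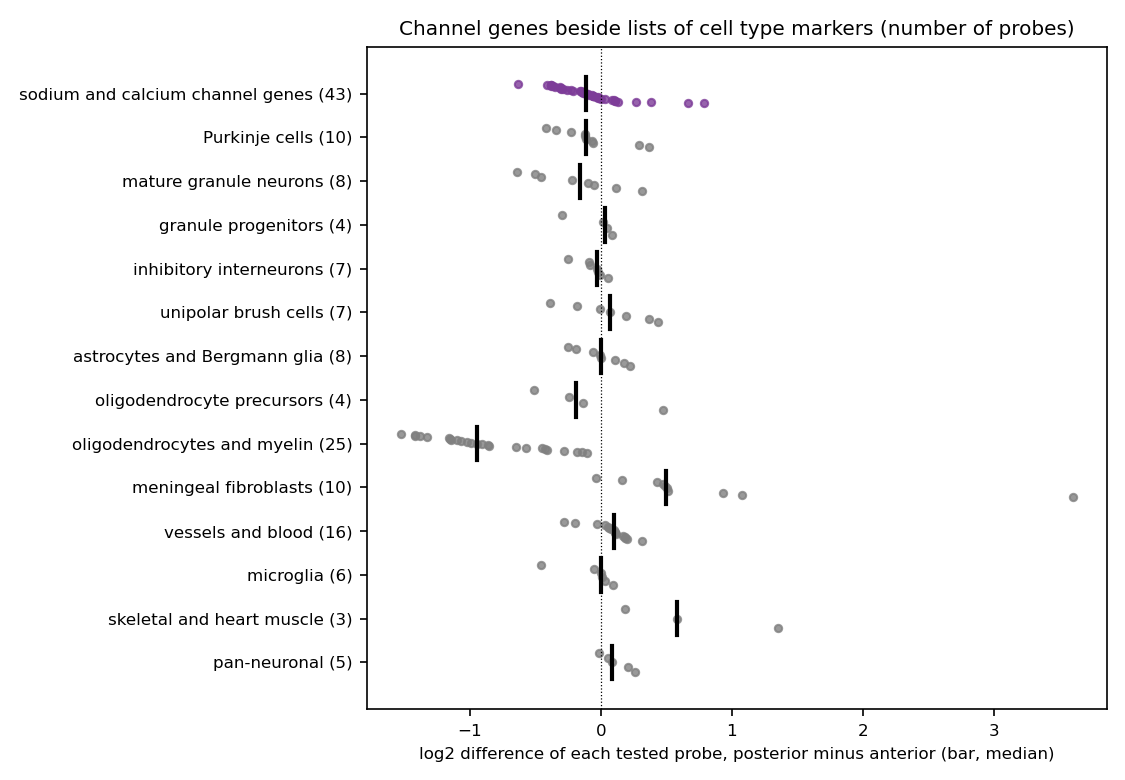
Log2 difference, posterior minus anterior, of each tested probe of the channel genes (purple, 43 probes) and of the lists of cell type markers (grey), with a black bar at the median and points spread vertically for legibility. The channel median was -0.12, and those of the Purkinje cell, mature granule neuron and oligodendrocyte precursor lists were -0.12, -0.16 and -0.19. The medians of the myelin and meningeal fibroblast lists were -0.94 and 0.50, and that of the muscle list was 0.58 on 3 probes.

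By RefSeq order in the mouse assembly GRCm38.p6, several channel genes are neighbours with no protein-coding gene between them, namely Scn3a and Scn2a, Scn1a with Scn9a and Scn7a, Scn2b and Scn4b, Scn10a and Scn11a, Cacng7 with Cacng8 and Cacng6, and Cacng1 with Cacng4 and Cacng5. Of these neighbours, Scn4b had differences of -0.63 and -0.019 and Scn2b of -0.15 to -0.063, Scn3a had -0.059 beside -0.37 to -0.13 for Scn2a, and Scn11a was higher where Scn10a was not detected. RefSeq promoter sequences were matched by symbol to 27 of the 37 genes, with 37 promoters in all. The 250 bases before the start held 56.8% G and C in the median promoter of these genes, between 38.4% and 86.4%, against 52.4% over all 32851 promoters.

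Motifs chosen after the values were known were searched on both strands of these 250 bases, in 37 promoters of channel genes. The E-box CAGCTG was in 10, against 13.0% of all promoters, and CCAAT was in 10, against 33.8%. TATAAA was in 1 (12.4% of all) and TAATCC, the core that OTX proteins bind, was in 2 (6.25% of all). The EBF motif, TCCC and GGGA with 2 free letters between them (0.779% of all) and TTCAGCACC, the left part of the REST motif (0.301% of all), were in 0. A match is a description of the letters only. The upstream sequences of the genes with the largest fitted differences in each direction are shown so that their make-up can be compared, from RefSeq, GRCm38.p6, with matches to any of the 6 motifs in capitals.
Scn4b, chr9:45138374-45138623, plus strand: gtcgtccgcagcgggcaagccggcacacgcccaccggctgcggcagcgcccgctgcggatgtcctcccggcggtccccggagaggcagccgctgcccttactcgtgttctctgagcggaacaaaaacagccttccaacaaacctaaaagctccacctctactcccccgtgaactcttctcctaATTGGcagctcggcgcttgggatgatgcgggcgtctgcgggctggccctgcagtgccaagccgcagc
Cacna1b, chr2:24763153-24763402, minus strand: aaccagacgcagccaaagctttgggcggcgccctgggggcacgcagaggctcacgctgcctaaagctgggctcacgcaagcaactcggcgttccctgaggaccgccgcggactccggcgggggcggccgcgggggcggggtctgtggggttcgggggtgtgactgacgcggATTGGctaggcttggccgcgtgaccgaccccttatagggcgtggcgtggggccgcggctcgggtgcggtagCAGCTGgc
Cacna2d1, chr5:15934441-15934690, plus strand: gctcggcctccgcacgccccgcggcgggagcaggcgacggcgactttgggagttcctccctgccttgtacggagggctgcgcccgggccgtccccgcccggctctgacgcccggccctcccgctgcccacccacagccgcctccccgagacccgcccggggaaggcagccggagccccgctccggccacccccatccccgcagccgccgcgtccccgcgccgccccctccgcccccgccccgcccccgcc
Scn11a, chr9:119825457-119825706, minus strand: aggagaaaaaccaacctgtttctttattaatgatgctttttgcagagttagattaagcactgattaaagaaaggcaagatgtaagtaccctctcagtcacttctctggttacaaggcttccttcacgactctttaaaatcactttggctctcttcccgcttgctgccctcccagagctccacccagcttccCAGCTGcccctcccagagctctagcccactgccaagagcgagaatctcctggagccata
The promoter of Cacna2d1 held 82.4% G and C and no match, and that of Scn11a held 48.0% and the E-box. Those of Scn4b and Cacna1b held 66.0% and 72.0%, each with a CCAAT box, on the minus strand in the orientation shown, and Cacna1b also with the E-box.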

How the data were processed

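Per the file headers, the deposited values are GenomeStudio 1.9.0 intensities without normalization. For each probe the authors gave the mean intensity over its beads, with the bead SD and bead count, and a detection score, a fraction from 0 to 1. Another 16 columns were left out. After quantile normalization, a floor of 1 and log2, posterior minus anterior differences were fitted over all tested probes with limma 3.58.1 (lmFit, eBayes with an intensity trend) in R 4.3.3, with Benjamini-Hochberg adjustment. The fit was tested on simulated data. With each probe's moderated variance, part of the changes of 1.5-fold were found, with more false calls than the adjusted threshold states. After seeing this, a second simulation with variances drawn from the prior of the fit was made, where false calls stayed within the threshold and changes of 1.5-fold were missed. Which is nearer to these arrays is not known, so adjusted p-values may be too low, and a count of 0 after adjustment does not show that probes did not differ. The bead SE of channel probes detected on all arrays was 2.43% to 7.08%.

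The channel genes and all lists were chosen with earlier results of these data known, so lists carry no test. The genes Itpr1, Calb1, Calb2, Pvalb, Snap25 and Syt1 stand in 2 lists each. Values per array are given for probes past the study criterion or an adjusted p of 0.05, the 3 probes with the largest difference in each direction and tested probes of genes with known roles in the cerebellum, of which Cacna2d2 and Cacng7 had none. At most 3 probes past the criterion are named from each partner list in each direction, not every gene is named, and other names were chosen after their values were seen. Alternatives were neqc (offset 16), 2 other scalings, 3 other filters, a fit without the trend, the t-test of the methods, a replicate block, each sample left out, a 1.5-fold threshold and 1 probe per gene. A further filter, detection on at least 1 array of each lobe, was chosen after seeing the data.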

Additional observations from a re-analysis of the deposited data

How the results depend on the processing

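Against 8 channel probes past the study criterion, 5 of 39 passed with detection on all 4 arrays (7.93% of all tested probes) and 5 of 33 with a detection score over 0.99 (8.56%), where dim probes were no longer tested. With no filter 12 of 82 passed (5.51%), and with detection in both lobes, a filter chosen after seeing the data, 7 of 42 (7.67%). The methods' t-test passed 2 (3.41% of all), a 1.5-fold threshold 3 (1.79% of all) and 1 probe per gene 4 of 24 (7.92% of all genes tested), and leaving out each sample in turn gave 3 to 17 (3.58% to 22.1% of all). The count past an adjusted p of 0.05 was 0 with each other scaling, filter and test, and 0 to 14 with samples left out. It was not computed for the 1.5-fold threshold or 1 probe per gene. Where a lobe had 1 sample left, that sample was assumed to vary like the other lobe. The median difference kept its sign, between -0.15 and -0.046. With the replicate block, 14 channel probes passed the study criterion (13.0% of all) and 3 an adjusted p of 0.05 (Cacna2d1, Scn11a and Scn4b), against 588 of all tested probes. The samples share only a number, and across the tested probes, which are not independent replicates, the difference between replicates correlated between the lobes with r = 0.458.

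Some differences near 0 changed sign. With the shift to a common 75th percentile they were 0.0032 and 0.0044 for Cacnb4 (ILMN_1223194 and ILMN_3123491), 0.0093 for Scn2b (ILMN_1244207) and 0.012 for Scn4b (ILMN_1242172). With samples left out they ranged from -0.0060 to 0.18 and from -0.31 to 0.032 for Cacna1g (ILMN_1241838 and ILMN_1256998), from -0.070 to 0.043 and from -0.075 to 0.033 for these Cacnb4 probes, and from -0.16 to 0.13 for this Scn4b probe. The cause was not tested. Some kept their sign with samples left out but moved, from -0.32 to -0.10 for Cacna1a (ILMN_1212985), from -0.19 to -0.091 for Cacna1b (ILMN_2770304), from 0.0096 to 0.20 for Cacnb4 (ILMN_3047749), from -0.25 to -0.059 and from -0.12 to -0.0063 for Scn2b (ILMN_2935462 and ILMN_1244207), from 0.0011 to 0.20 for Cacng2 and from 0.016 to 0.24 for Cacng4. No alternative under which they were tested changed the sign of the 8 probes past the study criterion. Dim probes near the background limit what the arrays can show.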
